A study of Mus musculus with 2 samples.

Results

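The receptor for adrenocorticotropic hormone (ACTH), Mc2r, and the melanocortin receptor accessory proteins Mrap and Mrap2 were followed in long-read RNA sequencing of the mouse adrenal gland. The 3 genes were taken by name from the deposited tables, out of 15242 annotated genes with a read in replicate 1 and 16852 in replicate 2. Antisense transcript models lying over Mc2r were added, which gave 18 of 104489 models in replicate 1 and 20 of 140263 in replicate 2. Both libraries were made from total RNA of adrenal tissue of male B6CASTF1/J mice, an F1 hybrid of C57BL/6 and CAST/EiJ, aged 25 days. They form 1 group, with no treatment and no second genotype, so that no condition was compared with another. The labels number the libraries as biological replicates 1 and 2. The library notes name 1 animal for both replicates whereas the tissue notes name an animal each. The labels therefore do not settle whether the spread between the 2 libraries is biological or technical.

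ACTH from the pituitary acts on adrenal cortical cells through Mc2r, a receptor coupled to the stimulatory G protein that raises cyclic AMP and, through it, steroid synthesis. Mc2r reaches the cell surface and binds ACTH only with the help of Mrap, a small protein with a single membrane-spanning segment that assembles as an antiparallel dimer. In humans, loss of either MC2R or MRAP causes familial glucocorticoid deficiency. Mrap2, the paralogue, is best known from the brain, where it modulates other receptors of this class. Mouse adipocytes also express Mc2r and Mrap.

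The kinship of the accessory proteins is shown here by the coding exon in the middle of each gene, which encodes much of the membrane-spanning segment. Both exons are 100 bases long and were taken from the GENCODE M21 transcripts (build mm10, plus strand), at chr16:90747524-90747623 for Mrap and chr9:87175794-87175893 for Mrap2. Capitals mark the 56 bases that are the same at the same position in both.
Mrap exon: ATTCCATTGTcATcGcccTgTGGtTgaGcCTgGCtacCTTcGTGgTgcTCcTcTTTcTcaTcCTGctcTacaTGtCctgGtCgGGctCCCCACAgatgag
Mrap2 exon: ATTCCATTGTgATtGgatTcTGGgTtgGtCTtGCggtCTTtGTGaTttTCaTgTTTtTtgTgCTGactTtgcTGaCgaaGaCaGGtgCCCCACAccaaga
The identical bases included the first 10 of the exon.

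Mrap also has annotated transcripts that enter other sequence after the first coding exon, and these were read in both libraries. Each line below gives the last 20 bases of the first coding exon of Mrap and the bases that follow in that transcript, with an annotated stop codon in capitals.
Mrap-201: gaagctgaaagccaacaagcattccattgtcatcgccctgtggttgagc
Mrap-204: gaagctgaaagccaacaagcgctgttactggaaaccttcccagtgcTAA
Mrap-202: gaagctgaaagccaacaagctgTGA
Mrap-201 runs on into the middle exon and encodes 127 codons. Mrap-204 starts the middle exon 149 bases earlier, and its coding sequence ends after 44 codons. Mrap-202 carries an extra exon of 85 bases, and its coding sequence ends after 36 codons. GENCODE classes both as targets of nonsense-mediated decay, the pathway that removes transcripts with an early stop.

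Replicate 1 had 793999 reads, 752432 of them in annotated genes, and replicate 2 had 1290342 reads, 1210671 of them in such genes. Levels were scaled to 1000000 gene reads (CPM) and are given with 95% Clopper-Pearson intervals. A gene with 0 reads may still lie at up to 3 reads, which is 3.99 CPM in replicate 1 and 2.48 CPM in replicate 2. Intervals and limits cover counting error only. The steroidogenic genes Star, Cyp11a1, Hsd3b1, Cyp21a1 and Cyp11b1 define the labelled tissue. Together they reached 60879.9 CPM in replicate 1 against 24697.0 CPM in replicate 2. Skeletal muscle markers summed to 2548 CPM in replicate 1 against 1.65 CPM in replicate 2, and liver markers to 5.32 CPM in replicate 1 against 43821 CPM in replicate 2. Genes over 10-fold different between the libraries took 1.01% of the gene reads of replicate 1 and 22.7% of those of replicate 2, which lowers every other CPM value of replicate 2. The part of these other tissues in the differences below was not tested. In bulk tissue, fewer cells of a type and less RNA per cell cannot be told apart.

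Mrap was the most abundant of the 3 genes in both libraries, Mc2r was lower, and Mrap2 lay near the limit of detection. Mrap (chromosome 16, 90738207 to 90749785, plus strand) had 276 reads in replicate 1, or 366.8 CPM (interval 324.8 to 412.7), and 148 reads in replicate 2, or 122 CPM (103 to 144). Mc2r (chromosome 18, 68406907 to 68429320, minus strand) had 30 reads in replicate 1, or 39.9 CPM (26.9 to 56.9), and 67 reads in replicate 2, or 55.3 CPM (42.9 to 70.3). Mrap2 (chromosome 9, 87144306 to 87184045, plus strand) had 1 read in replicate 1 and 3 reads in replicate 2, or 1.33 CPM (0.0337 to 7.41) and 2.48 CPM (0.511 to 7.24). The order Mrap, Mc2r, Mrap2 was the same in both libraries, and no pair of intervals overlapped within a library. These counts leave out the antisense reads at Mc2r described below, and with them Mc2r would lie above Mrap in replicate 2. The means were 244.5 ± 172.9 CPM for Mrap, 47.6 ± 10.9 CPM for Mc2r and 1.90 ± 0.812 CPM for Mrap2 (SD, n = 2). By level, Mrap ranked 397 among the genes of replicate 1 and 1543 in replicate 2, and Mc2r ranked 4795 and 3329.

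**Figure D1:**
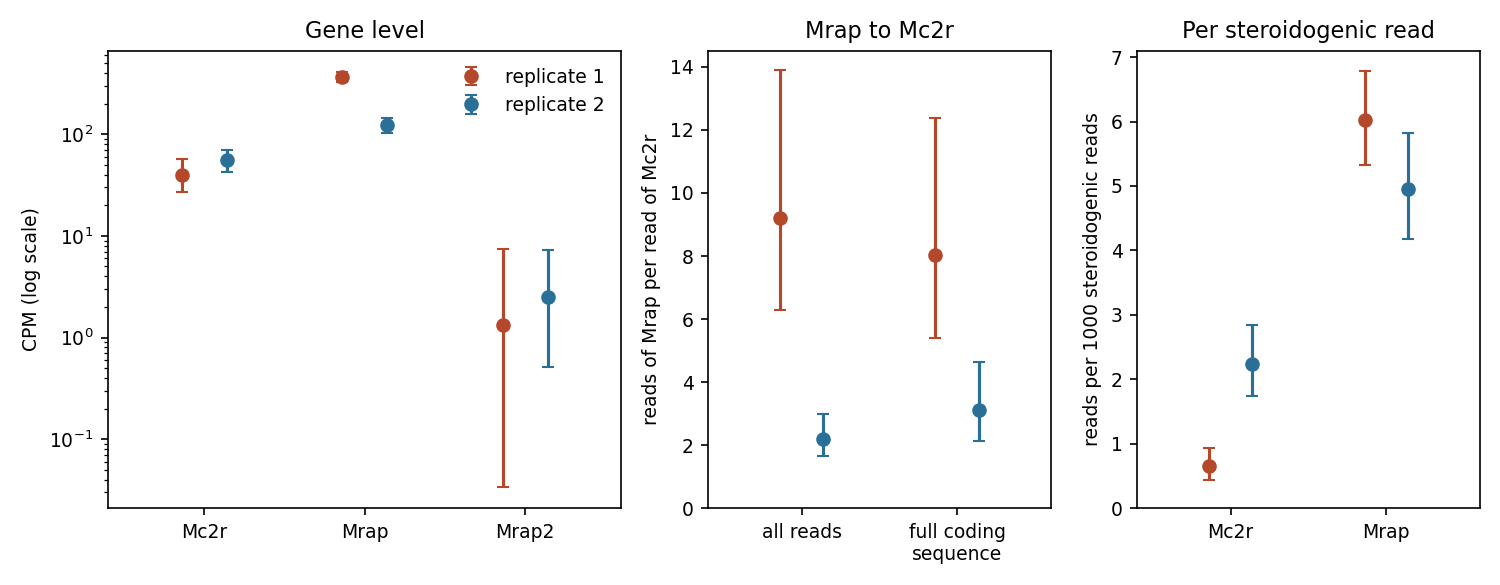
Left, CPM of each gene on a log axis. Middle, reads of Mrap per read of Mc2r. Right, reads of Mc2r and Mrap per 1000 reads of the 5 steroidogenic genes. Points are single libraries and bars 95% Clopper-Pearson intervals; the Mrap to Mc2r intervals of replicate 1 lie above those of replicate 2, and the Mrap intervals in the right panel overlap.

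Between the libraries Mrap differed and Mc2r did not pass the test. Mrap was 3.00-fold higher in replicate 1 than in replicate 2 (interval 2.45 to 3.69), a log2 ratio of 1.58 ± 0.15 (counting SE), with an adjusted p of 2.97e-27 by Fisher's exact test (two-sided, Benjamini-Hochberg over 11382 genes). Of all genes tested, 25.3% were called higher and 11.5% lower in replicate 1, and the median log2 ratio was 0.34, so that Mrap stood 1.25 above the median gene. The test compares 2 libraries, not conditions. Mc2r had a ratio of 0.720 (0.452 to 1.12), a log2 ratio of -0.46 ± 0.31 and an adjusted p of 0.260. The call on Mc2r depended on the scaling: with TMM factors, which bring the median gene to -0.01, the log2 ratio was -0.81 and the adjusted p 0.0351, while Mrap had 1.23 and 1.20e-16. It also depended on 1 model of Mc2r described below. Without models of 1 base, the log2 ratio of Mc2r turned to 0.28 (adjusted p = 0.616), and it was -0.07 (adjusted p = 0.973) when TMM factors were used as well.

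Ratios within a library do not depend on its total. There were 9.2 reads of Mrap for each read of Mc2r in replicate 1 (interval 6.3 to 13.9) and 2.21 in replicate 2 (1.64 to 2.99). Counting only reads of models that hold the whole annotated coding sequence, the ratio was 8.04 in replicate 1 (5.41 to 12.4) and 3.11 in replicate 2 (2.13 to 4.63). The intervals did not overlap between libraries in either count. The 5 steroidogenic genes had 45808 reads in replicate 1 and 29900 in replicate 2. Per 1000 of these, Mrap had 6.03 reads in replicate 1 (5.33 to 6.78) and 4.95 in replicate 2 (4.18 to 5.82). These Mrap intervals overlapped. Mc2r had 0.655 per 1000 in replicate 1 (0.442 to 0.935) and 2.24 in replicate 2 (1.74 to 2.85), and these did not overlap. With whole coding sequences alone, Mc2r had 0.611 (0.406 to 0.884) in replicate 1 and 1.24 (0.871 to 1.71) in replicate 2, and the intervals then overlapped slightly.

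Mc2r has 1 annotated transcript, Mc2r-201, with exons of 109, 112 and 1410 bases. The whole coding sequence of 296 codons lies in the last exon (68407333 to 68408220), so that a change in the exons before it leaves the annotated coding sequence as it is. Over both libraries together, the splice chain of Mc2r-201 was the structure with the most reads, called leading here. It had 13 of 30 reads (43.3%) in replicate 1 and 27 of 67 (40.3%) in replicate 2. Single-exon models, counted here as 1 structure, had 5 of 30 and 29 of 67, more than the chain in replicate 2. The share of the chain did not pass Fisher's exact test between the libraries (adjusted p = 0.981). Of 5612 genes with 20 or more reads in each library and more than 1 structure, 12.4% passed. In the median gene the leading structure held 75.8% of reads in replicate 1 and 70.0% in replicate 2, and 16.6% of these genes had a lower mean share than Mc2r.

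In replicate 2 another 27 reads, as many as Mc2r-201 had, were assigned to a model of class Genomic that is 1 base long. The class Genomic is given to reads that overlap a gene without matching its splice sites. This model sits at the very last base of Mc2r, and replicate 1 had no read of it. Models of 1 base took 0.0869% of all reads in replicate 1 and 0.239% in replicate 2. Among genes with 20 or more reads, 91 of 6290 in replicate 1 and 253 of 7405 in replicate 2 had such a model. In replicate 2, 8 genes, Mc2r included, had a share of it as high as the 40.3% of Mc2r. With it, models holding the whole Mc2r coding sequence took 28 of 30 reads (93.3%, interval 77.9 to 99.2) in replicate 1 and 37 of 67 (55.2%, 42.6 to 67.4) in replicate 2. Without it, the count in replicate 2 was 37 of 40 (92.5%, 79.6 to 98.4), and the share of Mc2r-201 was 43.3% in replicate 1 and 67.5% in replicate 2.

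Several structures upstream of the coding exon recurred. The first exon was joined directly to the coding exon, skipping the middle exon, in 3 reads of replicate 1 and 4 of replicate 2. An extra exon of 57 bases (68422116 to 68422172), which Mc2r-201 lacks, lay within the first intron of 19293 bases and was read 3 times in replicate 1 and 6 times in replicate 2. The intervals of its share, 2.11% to 26.5% of Mc2r reads and 3.36% to 18.5%, overlapped. The middle exon lacked 4 bases at its 5′ end in 2 reads of replicate 1 and 1 of replicate 2. All of these reads kept the coding exon whole.

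A few Mc2r reads lacked it. A chain of 4 exons used the first and middle exons and then ran past the gene into exons at 68406299 to 68406453 and, at its end, up to 4683 bases beyond the annotated end, leaving out the coding exon. Its reads numbered 2 in replicate 1 and 1 in replicate 2. A single-exon model of 1450 bases in the first intron, next to the first exon, had 0 reads in replicate 1 against 2 in replicate 2. Shorter matches that kept the coding exon, called ISM for incomplete splice match, were mostly of replicate 1. The coding exon alone had 5 reads there and 0 in replicate 2, and the coding exon with the middle exon had 3 and 0.

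**Figure D2:**
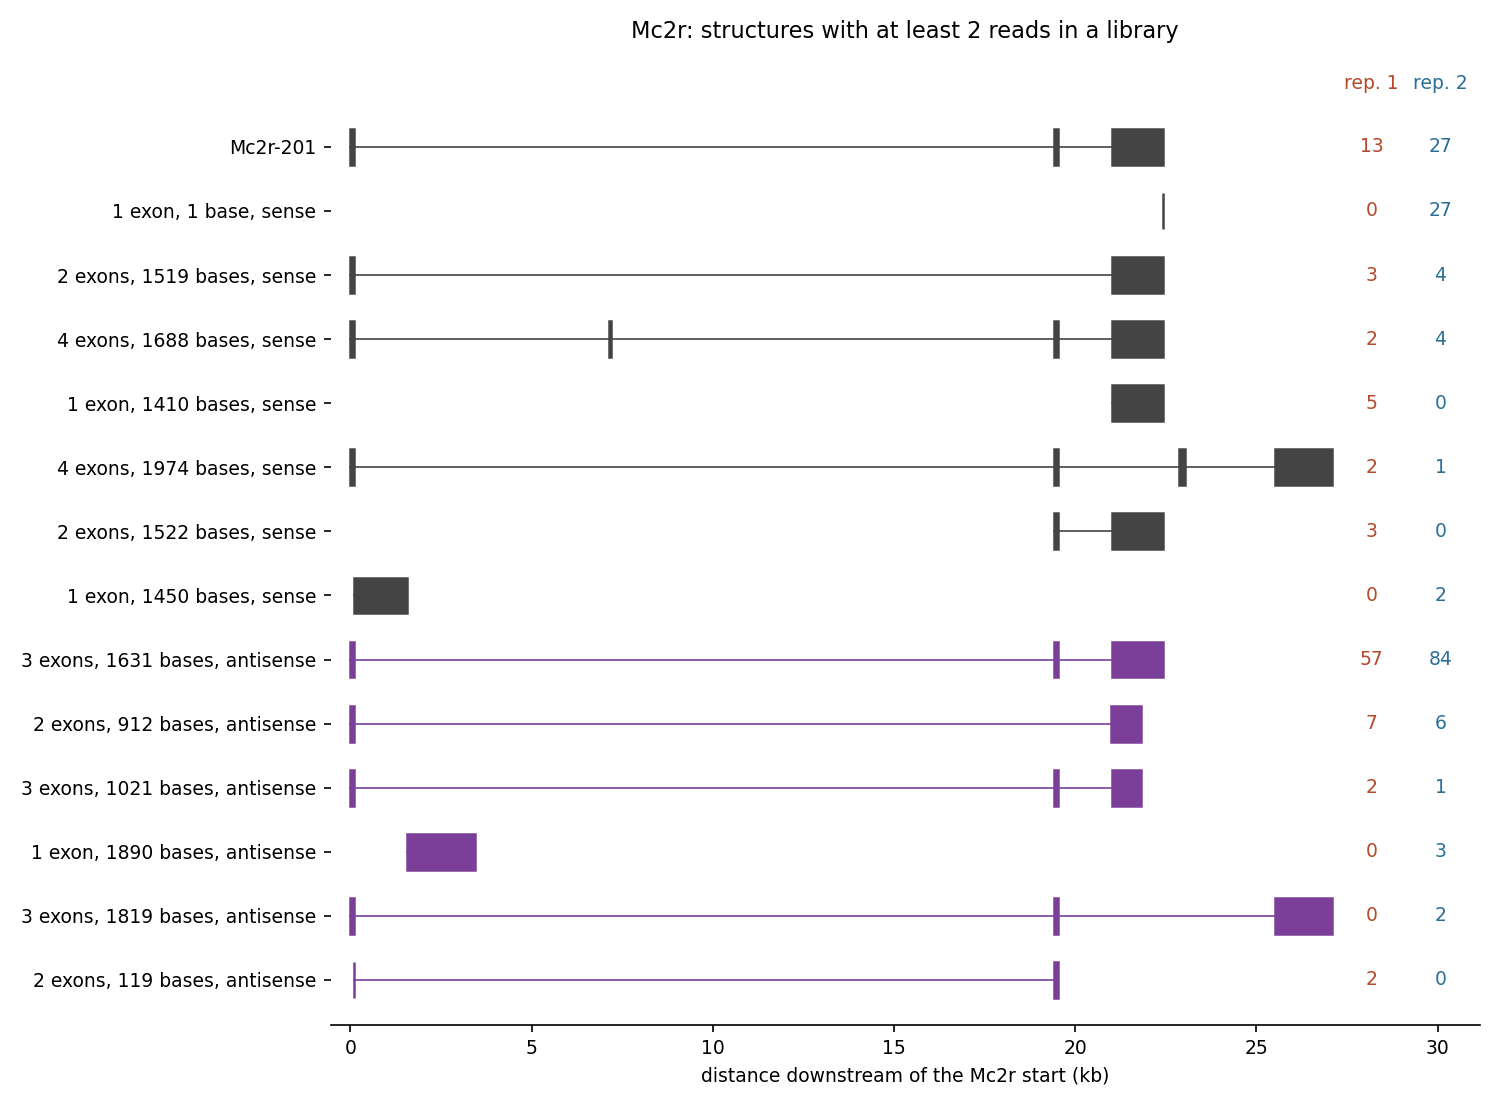
Exon structures at Mc2r against the distance downstream of its start in kb, sense in grey and antisense in purple, with reads in replicate 1 and replicate 2 at the right. Boxes are exons, with a line width that makes the shortest visible, and lines are introns. The antisense chain with 57 and 84 reads has the introns of Mc2r-201, which has 13 and 27.

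More reads were assigned to the strand opposite Mc2r than to Mc2r. The antisense locus had 69 reads in replicate 1 and 103 in replicate 2, or 2.3 (interval 1.48 to 3.66) and 1.54 (1.12 to 2.12) for each Mc2r read. Most of them, 57 of 69 (82.6%) and 84 of 103 (81.6%), had exactly the introns of Mc2r-201 on the other strand. This mirror chain had 4.38 reads for each read of the Mc2r-201 chain in replicate 1 (2.37 to 8.73) and 3.11 in replicate 2 (2.00 to 4.99). The recorded model began inside the last exon of Mc2r in replicate 1, where it covers 804 of the 1410 bases, and spanned the whole of Mc2r-201 in replicate 2. In replicate 1 it carries the authors' class Antisense. In replicate 2 it carries the class NIC, for new combinations of known splice sites, inside an antisense locus, and the 1 model there of class Antisense had 2 reads. The sources used here do not say how the strand of a read was set.

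Some features of the minor sense forms were also met on the antisense strand, not always in the same chain. Antisense reads with the middle exon 4 bases shorter numbered 2 in each library. A 2-exon antisense chain that skips the middle exon, with both splice sites a few bases off those of Mc2r, had 7 and 6 reads. The 2-read antisense model of replicate 2 held the same downstream exon, 68402224 to 68403821, as the sense chain that leaves out the coding exon. Were all antisense reads counted to Mc2r, its reads would be 99 in replicate 1 and 170 in replicate 2, and its mean level 136.0 CPM. The log2 ratio between libraries would be -0.09 (adjusted p = 0.785 by Fisher's exact test). In replicate 2 Mc2r would then have more reads than the 148 of Mrap.

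Such mirror chains lay at few of the genes, but were common among multi-exon models in antisense loci. All introns of 193 of 740 such models in replicate 1 (26.1%), and of 415 of 1298 in replicate 2 (32.0%), matched annotated introns of the opposite strand. These mirror models held 483 of the 1196 reads of such models in replicate 1 (40.4%) and 1009 of 2253 in replicate 2 (44.8%). Of 5600 genes with 20 or more sense and mirror reads in each library, 5335 had no mirror read in either and 54 had some in both. Mirror reads outnumbered sense reads in both libraries at 2 of these genes, Mc2r and Crebbp. Mc2r had the most mirror reads of any gene, 59 in replicate 1 and 84 in replicate 2, counting a partial chain of 2 reads, or 66.3% and 55.6% of its sense and mirror reads. Crebbp, a histone acetyltransferase and transcriptional coactivator, had 55 and 55 mirror reads beside 8 and 10 sense reads. Next came Nr2f2, an orphan nuclear receptor, with 34 and 55 mirror reads, Tspan12, a tetraspanin, with 18 and 36, and Gtf2a1, a subunit of the general transcription factor TFIIA, with 8 and 41. Mrap and 4 of the steroidogenic genes had 0 mirror reads in both libraries, and Cyp11b1 had 1 in replicate 2. Sense reads of Cyp11a1 numbered 14903 in replicate 1 and 10879 in replicate 2. The cause of the mirror reads was not tested. The opposite strand of Mrap carried 17 reads in replicate 1 and 31 in replicate 2. An exon of Mrap was overlapped by 0 and 2 of these.

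**Figure D3:**
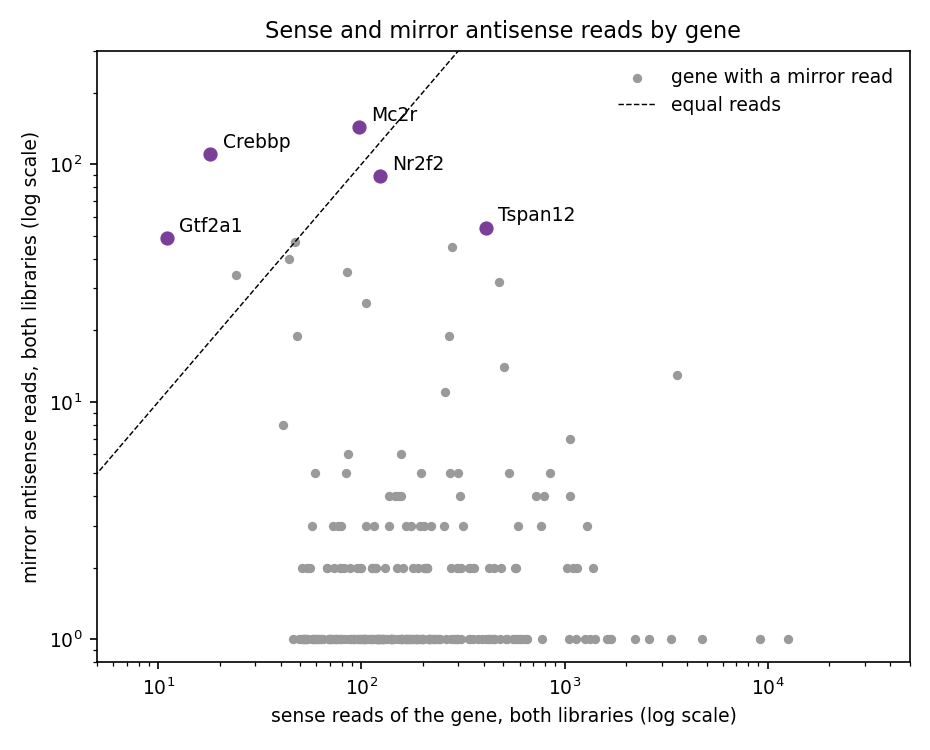
Mirror antisense reads against sense reads, both libraries together and both axes logarithmic, for genes with at least 1 mirror read and 20 or more sense and mirror reads in each library; the 5 genes with the most mirror reads, in purple, include Gtf2a1, which falls short of that minimum in replicate 1. Mc2r lies highest, above the dashed line of equal reads.

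Mrap reads were mostly of 1 structure. Mrap-201, the transcript with exons of 346, 100 and 555 bases that encodes the accessory protein, had 225 of 276 reads (81.5%, interval 76.4 to 85.9) in replicate 1 and 115 of 148 (77.7%, 70.1 to 84.1) in replicate 2. Its share did not pass the test between libraries (adjusted p = 0.696), and 62.4% of the genes tested had a lower mean share. No other Mrap model held the whole coding sequence. The transcripts with an early stop, whose junctions are printed above, had few reads: Mrap-204 had 10 in replicate 1 and 2 in replicate 2, and Mrap-202 had 5 and 2. Together they took 5.43% (3.07 to 8.81) and 2.70% (0.741 to 6.78) of Mrap reads.

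Of the other Mrap structures, the 4 with 2 or more reads in a library carried intron sequence or only the last exon. A model of 2725 bases that splices out the first intron and keeps the second, of 1607 bases, had 19 reads (6.88%, interval 4.20 to 10.5) in replicate 1 and 4 (2.70%, 0.741 to 6.78) in replicate 2. A 2-exon model of 1453 bases, which begins in the first intron and splices out the second, had 4 and 9 reads. A single-exon model of class Genomic with 1223 bases, reaching from the second intron to the end of the gene, had 0 and 13. The last exon alone had 11 and 0. The remaining 5 Mrap structures had 1 read each, among them a spliced form of replicate 1 with exons upstream of the annotated start of the gene.

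**Figure D4:**
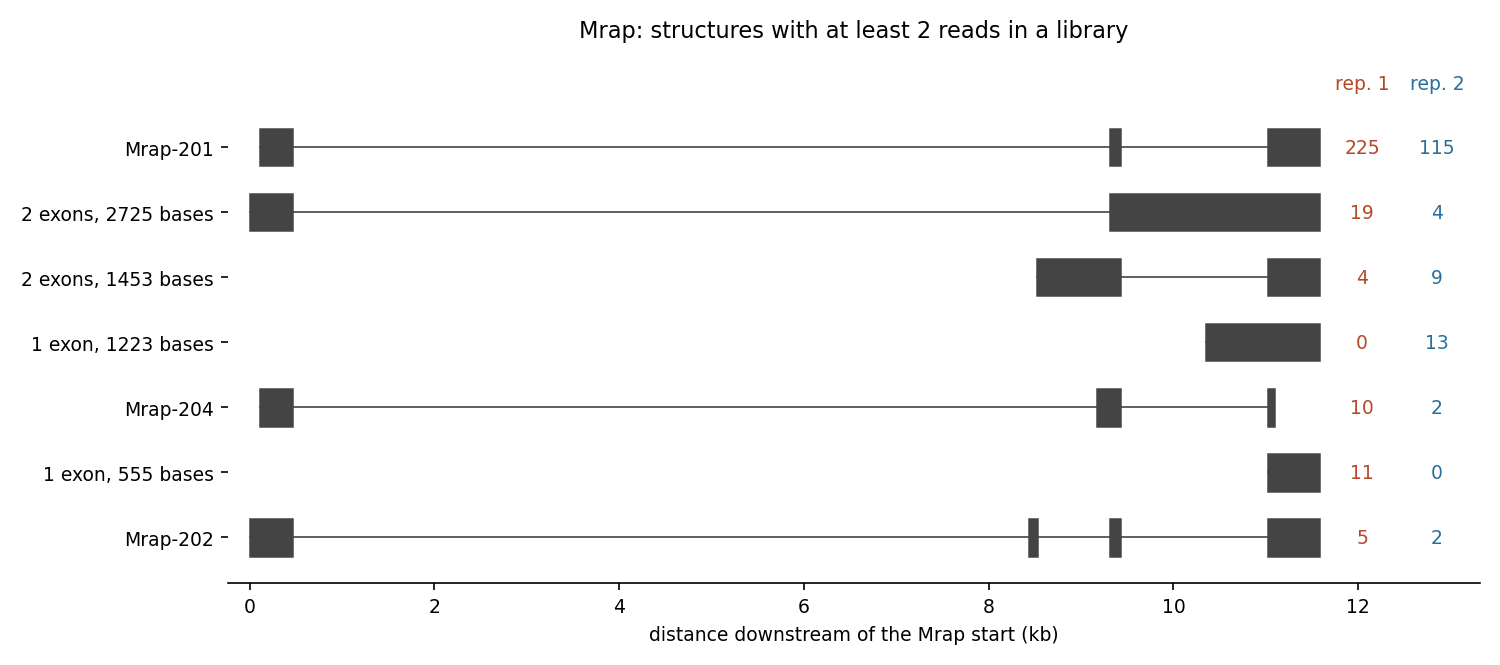
Exon structures of Mrap with 2 or more reads in a library, against the distance downstream of its start in kb, with reads in replicate 1 and replicate 2 at the right. Mrap-201 has 225 and 115 reads; the 2725-base model that keeps the second intron has 19 and 4.

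The 4 reads of Mrap2 all held its whole coding sequence of 207 codons. The 1 read of replicate 1 matched the last 3 exons of the gene. In replicate 2, 2 reads had 5 exons and 1 read had 7, and both structures began at the annotated start of the gene. None had the complete chain of an annotated Mrap2 transcript. Other receptors that Mrap2 is known to modulate were as scarce: Prokr1, a prokineticin receptor, had 1 read in each library, Hcrtr1, an orexin receptor, had 0 in replicate 1 and 3 in replicate 2, and Mc4r, Ghsr and Prokr2 had 0 in both.

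Mc2r was the melanocortin receptor of this tissue by read count. Mc5r had 1 read in replicate 1 and 0 in replicate 2, and Mc1r, Mc3r and Mc4r had 0 in both, which allows up to 3.99 and 2.48 CPM each. Pomc, which encodes the precursor of ACTH, had 0 reads in replicate 1 and 4 in replicate 2, the antagonist Agrp had 1 and 2, and the antagonist Asip had 0 and 0. Mgrn1, a ubiquitin ligase known to act on melanocortin signalling, was higher in replicate 1, with 127.6 CPM against 38.8 CPM in replicate 2 (log2 ratio 1.71 ± 0.26, adjusted p = 6.47e-11). Atrn, which Asip signalling needs in mouse skin, had 12 reads in replicate 1 and 18 reads in replicate 2 (adjusted p = 0.925). In this family 1 of 2 tested genes was higher in replicate 1 and 0 lower, against 25.3% and 11.5% of all genes.

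Downstream of the receptor, 10 of 19 tested genes of the cyclic AMP pathway were higher in replicate 1 and 0 lower, with a median log2 ratio of 0.89. Over all genes 25.3% were higher and 11.5% lower, with a median of 0.34. With TMM factors 8 of the 19 were higher and 1 lower, against 13.7% and 17.7% of all genes. Gnas, the stimulatory G protein subunit that Mc2r couples to, had 1829 CPM in replicate 1 and 1761 CPM in replicate 2 (log2 ratio 0.05, adjusted p = 0.431), and with TMM factors its log2 ratio was -0.29 (adjusted p = 3.64e-08). Prkar1a, a regulatory subunit of protein kinase A, was higher in replicate 1, with 1050 against 618.7 CPM (log2 ratio 0.76 ± 0.07, adjusted p = 1.24e-23). The catalytic subunit Prkaca was higher too, with 657.9 against 275.9 CPM (log2 ratio 1.25 ± 0.10, adjusted p = 7.38e-34). Prkar2b, another regulatory subunit, had 663.2 and 588.1 CPM (adjusted p = 0.0976). Of 5 tested genes of receptor desensitisation, the receptor kinase Grk6 was higher in replicate 1, with 94.4 against 43.8 CPM (adjusted p = 0.000153). Grk2 was lower, with 27.9 against 52.0 CPM (adjusted p = 0.0376), and the other 3 did not pass; 1 of 5 in each direction is near the 25.3% and 11.5% of all genes.

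Of 16 genes listed as ACTH targets in the cortex, not all of them known to be induced by it, 12 were higher in replicate 1 and 2 lower. Their median log2 ratio was 0.98, and of all genes 25.3% were higher and 11.5% lower. With TMM factors 9 were higher and 2 lower, against 13.7% and 17.7%. Cyp11a1, the side-chain cleavage enzyme, had 19806 CPM in replicate 1 and 8986 CPM in replicate 2 (log2 ratio 1.14 ± 0.02). Cyp11b1, the last enzyme of corticosterone synthesis, had 11342 and 3364 CPM (log2 ratio 1.75 ± 0.03). The 2 lower genes, named after their values were seen, were Lipe, the hormone-sensitive lipase, with 81.1 against 133.8 CPM (log2 ratio -0.72 ± 0.22), and Nr4a1, an immediate early nuclear receptor, with 17.3 against 111.5 CPM (log2 ratio -2.64 ± 0.41). Among the 4 most abundant genes of this list, the log2 ratio of Mrap, 1.58, lay above those of Star (1.05) and Cyp11a1. It lay below those of Cyp21a1 (1.65) and Cyp11b1. That of Mc2r, -0.46, or 0.28 without models of 1 base, lay below all 4.

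**Figure D5:**
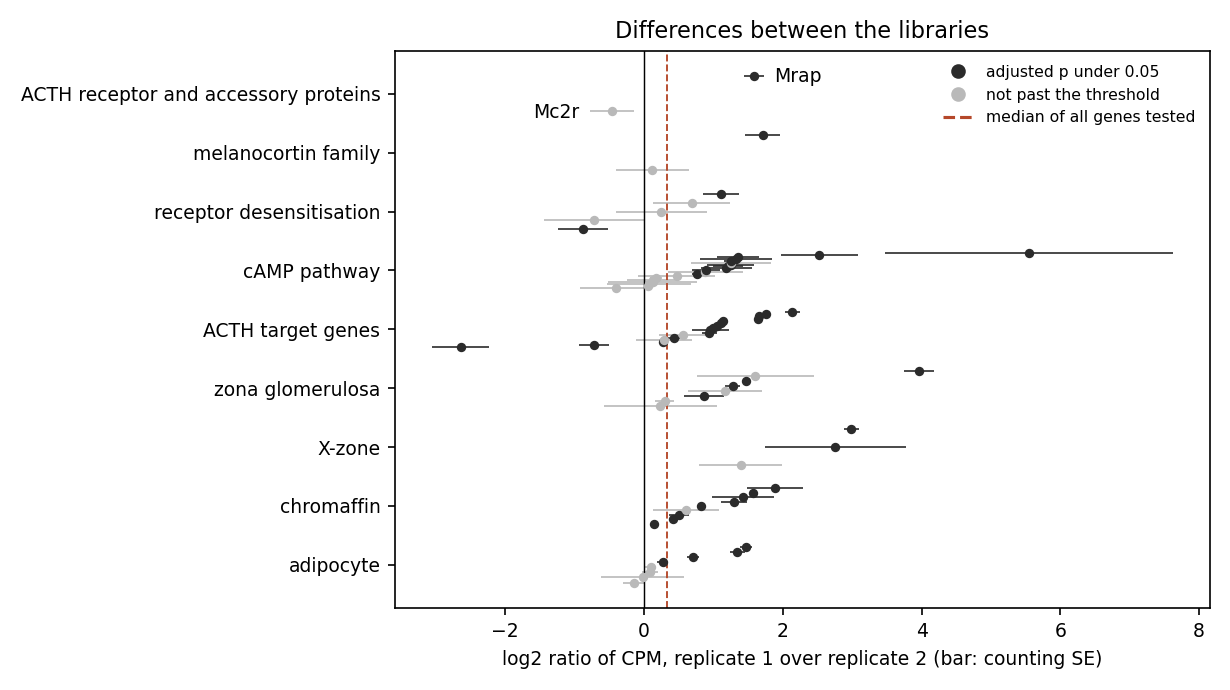
Log2 ratio of CPM, replicate 1 over replicate 2, for the tested genes of each list, with counting standard errors; black points have an adjusted p under 0.05. The dashed line is the median of all genes tested, 0.34; Mrap lies right of it at 1.58 and Mc2r left of 0 at -0.46.

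Marker lists of other cells differed in how many genes passed, to be read against 25.3% of all genes higher and 11.5% lower in replicate 1, or 13.7% and 17.7% with TMM factors. Of the zona glomerulosa list, 4 of 8 tested genes were higher in replicate 1 and 0 lower, among them Cyp11b2, aldosterone synthase, with 619.3 against 255.2 CPM. Of the X-zone list 2 of 3 were higher, led by Akr1c18 with 1558 against 195.8 CPM, and of the chromaffin list 8 of 9 were higher, with summed levels of 11624 and 7862 CPM. Of 6 tested genes in each list, 2 endothelial, 3 capsule and stroma, and 0 macrophage and leukocyte genes were higher, and 0 were lower in any of the 3. With TMM factors these lists had 1 higher and 2 lower, 0 and 1, and 0 and 1. TMM factors left 4 chromaffin genes higher and turned Chga, a granule protein of chromaffin cells, to lower. Adipocytes, which also express Mrap and Mc2r in mice, had summed marker levels of 4285 CPM in replicate 1 and 2821 CPM in replicate 2. All 8 markers were read in both libraries. In this list 4 of 8 were higher in replicate 1 and 0 lower, and with TMM factors 3 were higher and 2 lower. Fabp4, a fatty acid carrier, was higher in replicate 1, with 990.1 against 356.8 CPM (log2 ratio 1.47), as was Ucp1, the uncoupling protein of brown fat, with 780.1 against 477.4 CPM (log2 ratio 0.71). Cidea, a lipid droplet protein, had 776.1 and 643.4 CPM (log2 ratio 0.27, adjusted p = 0.00283 by Fisher's exact test). With TMM factors the log2 ratio of Cidea was -0.08 (adjusted p = 0.516). Cfd had 655.2 CPM in replicate 1 and 612.9 CPM in replicate 2 (log2 ratio 0.10, adjusted p = 0.400). TMM factors turned Cfd to lower in replicate 1 (log2 ratio -0.25, adjusted p = 0.0111). Adipoq, the adipocyte hormone adiponectin, named after its values were seen, had 171.4 and 189.2 CPM (log2 ratio -0.14, adjusted p = 0.543), and with TMM factors it was lower in replicate 1 (log2 ratio -0.49, adjusted p = 0.0088). The part of adipocytes in the Mrap and Mc2r reads was not tested. Kidney markers, from the organ beside the adrenal, summed to 0 and 1.65 CPM.

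The nearest protein-coding genes on each side had the following levels. Tcf4, 914035 bases beyond Mc2r, had 143.5 CPM in replicate 1 and 81.8 CPM in replicate 2, and Mc5r, 64460 bases on the other side, had the 1 read given above. Urb1, which ends 1741 bases from Mrap on the other strand, had 6 and 11 reads, and Mis18a, 10802 bases on the other side, had 4 and 0. Beside Mrap2, Cyb5r4 at 66531 bases had 129 and 169 reads and Cep162 at 5531 bases had 1 and 2, close to the 1 and 3 of Mrap2. By closeness of log2(CPM + 1) in both libraries, the 3 protein-coding genes nearest to Mc2r were Ntan1, Mppe1 and Rmdn1, and those nearest to Mrap were Sod3, Gaa and Arcn1. For Mrap2, 108 genes had the same pair of counts, and none is singled out. With 2 libraries this likeness says only that the counts are alike.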

How the data were processed

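Adrenal RNA was sequenced as long reads in 2 libraries of 1 group. The authors deposited raw read counts per transcript model, not normalised, with an annotation for each library. Per the file headers the build is mm10 with GENCODE M21 genes, and the attribute names belong to TALON; the sources used here give no aligner or version. The members and gene lists were chosen with earlier results of these data known.

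For each gene the counts of its models were added, and CPM was taken over annotated mouse genes without spike-ins or unannotated loci. Structures were matched by strand and intron chain. Genes with 10 or more reads in both libraries together were compared by Fisher's exact test (two-sided) against all other gene reads, adjusted by Benjamini-Hochberg, with calls at an adjusted p under 0.05 (SciPy 1.17.1). With 1 library on each side, edgeR's quasi-likelihood test had no residual degrees of freedom. Log2 ratios are replicate 1 over replicate 2 with a prior of 0.5 reads. The share of the leading structure was tested within genes of 20 or more reads in each library and more than 1 structure. The tests were tried on simulated counts with counting error alone, which does not cover other variation between libraries or differences in tissue content. Alternatives used edgeR 4.0.16 (TMM, exact test) and DESeq2 1.42.0 (size factors), other filters, totals and models.

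Named genes were the members, the melanocortin and Mrap2 partner lists, the 4 most abundant of each other list, the nearest protein-coding genes by position and by level, and the 5 with the most mirror reads. Outside this rule, Lipe, Nr4a1 and Adipoq were named after their values were seen, and Hsd3b1 as part of a summed list. Values of some named genes are summarised in counts. The sources used here do not say whether PCR copies were merged.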

Additional observations from a re-analysis of the deposited data

How the results depend on the processing

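Of 159 values recomputed for 27 results, 115 counted as unchanged. A level counted so within the SD of the main mean, and a ratio or percentage of models within the main interval. A number of calls counted so within a set fold of the main number. A log2 ratio or share difference had to keep its sign and its side of the threshold. Of the others, 35 moved out of these bounds, 4 newly passed the threshold with the same sign, and 5 changed sign. They are given below, and the cause was not tested unless the setting itself shows it. The 115 include values that could not change, and these are no sign of stability. With a library left out, a level or mean ratio always lies within the SD around the mean of both libraries. Adding antisense reads to Mc2r leaves the level and the log2 ratio of Mrap as they were. Mrap kept its direction and its call under all alternatives (log2 ratio 1.18 to 1.70, adjusted p up to 0.00523 by edgeR's exact test with an assumed coefficient of variation of 0.2).

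The log2 ratio of Mc2r was -0.81 (TMM), -0.86 (DESeq2 size factors), -0.82 (genes over 10-fold different left out of the total) and -0.92 (no ISM), each with an adjusted p under 0.05 (0.0351, 0.0212, 0.0316 and 0.0250). It turned to 0.33 without class Genomic (adjusted p = 0.530) and 0.28 without models of 1 base (adjusted p = 0.616). In the order TMM, size factors, 10-fold genes left out and assumed variation, genes higher in replicate 1 numbered 1563, 1387, 1454 and 743 beside 2876, and 1568 higher and 2014 lower with TMM and no models of 1 base. Genes lower numbered 2015 (TMM), 2193 (size factors), 780 (assumed variation) and 1562 (10-fold genes left out) beside 1307. Higher calls were 68.8% of all calls, and 43.7% with TMM, 38.7% with size factors, 48.2% without the 10-fold genes and 48.8% with assumed variation.

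The mean level of Mc2r was 26.0 CPM from known models, 36.5 CPM without models of 1 base and 136.0 CPM with antisense reads added, and that of Mrap2 was 0 from known models. Leading structure calls fell to 310 without ISM. The Mc2r share difference turned to -27.7 points without Genomic and -24.2 without models of 1 base, and that of Mrap to -3.66 without Genomic, with adjusted p of 0.165, 0.231 and 0.771.

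The Mrap to Mc2r ratio was 18.5 in replicate 1 and 4.41 in replicate 2 from known models, 2.79 and 0.871 with antisense reads added, and in replicate 2 it was 3.55 without Genomic and 3.7 without models of 1 base. Per 1000 steroidogenic reads, Mc2r had 0.417 and 1.55 from known models, 2.16 and 5.69 with antisense reads, and in replicate 2 1.51 without Genomic and 1.34 without models of 1 base. Mrap had 7.71 and 6.83 from known models. Mrap2 had 0 and 0 from known models and 0 in replicate 1 without ISM. Antisense reads per Mc2r read were 2.58 in replicate 2 without models of 1 base. Mirror models were 37.7% and 44.0% of those with 2 or more reads, and 35.2% in replicate 2 with splice sites within 5 bp.

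With replicate 1 or replicate 2 left out, each level or ratio is that of the other library, and a test between libraries cannot be run. No paired analysis was possible because there is 1 group. Mc2r rests on 30 and 67 reads and Mrap2 on 1 and 3, so depth limits both. The settings on models of 1 base were chosen after seeing the data.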
